A study of Mus musculus with 6 samples.

Results

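The 34 genes described here form the nucleolar machinery that makes ribosomes: subunits of RNA polymerase I, proteins of the small nucleolar RNPs, processing factors of the small and large ribosomal subunits, nucleolar chaperones, and 2 growth enzymes often read with them. They were taken by name, by a rule that uses no measured value, although the list was drawn up with earlier results of these data known. A probe of the array was tied to a gene when its RefSeq accession mapped to the gene's symbol. By this rule 33 of the 34 genes were measured, among 29192 genes and transcripts tested. Utp20, a scaffold of the small subunit precursor, had no probe named through an accession and has no value here. All 54 probes of the 33 genes passed the filter on dim probes, and the probe used for each gene was well above background on 6 of 6 arrays.

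Expression was measured in Lhx2 cells, a mouse hematopoietic stem and progenitor cell line made by enforced expression of the LIM-homeobox factor Lhx2 and grown in stem cell factor and interleukin 6. Both groups were deprived of serum overnight, with albumin in its place, so the untreated cells were also starved cells. TGF-β1 (10 ng/ml) was then added to 3 samples, harvested after 2 h, and the other 3 samples stayed untreated over the same 2 h. Each sample was hybridised to its own 1-colour array. The labels name 3 independent RNA harvests, each with an untreated and a treated sample of the same number, and do not say whether the harvests came from separate cultures, so p-values measure the spread between these samples. The labels name 1 cell line and no second clone.

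A level below is log2 of the processed signal minus log2 of the array's 75th percentile, so 0 is the brightness of that percentile on the same array and a difference of 1 is a doubling. Levels of different genes come from different probes and were not set against each other. A call is an adjusted p under 0.05 in limma, a linear model fitted to all 29192 genes and transcripts, with Benjamini-Hochberg adjustment over all of them. The 6 arrays lay on 2 slides, which the array names and scan times both separate. Slide 1 held untreated samples 1 and 3 and treated sample 1. Slide 2 held untreated sample 2 and treated samples 2 and 3. Pairs 1 and 2 therefore each lay on a single slide, and pair 3 had its untreated sample on slide 1 and its treated sample on slide 2. The 75th percentile of the processed signal was 794 to 901 on slide 1 and 1002 to 1031 on slide 2, and 82.9% to 86.8% of probes were well above background on slide 1 against 88.0% to 90.3% on slide 2. The number of arrays limits the precision.

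Several facts of the whole data set stand beside these results. Smad7, the inhibitory SMAD that TGF-β induces, rose in the treated cells by 3.56 ± 0.15 (log2 change ± SE, n = 3 per group, limma adjusted p = 0.0011). The progenitor markers Kit and Cd34, the pan-leukocyte gene Ptprc and the myeloid peroxidase gene Mpo were well above background on 6 of 6 arrays. The Lhx2 probe was above background on 6 of 6 arrays but dim, at -4.55 to -3.86, and whether it reads the introduced copy is unknown. Harvest 3, the one whose pair spans the slides, stood apart in other cell types' markers. The median deviation of 10 fibroblast and stroma genes from their own means was -1.37 and -1.16 there, against 0.11 and 0.28 in harvest 1 and 1.19 and 1.43 in harvest 2. Of these 10 genes, 7 had their lowest harvest mean in harvest 3 and 1, Thy1, had its highest there. All 11 granulocyte and macrophage markers measured had their highest harvest mean in harvest 3, where their median deviation was 0.42 and 0.23, against -0.35 to -0.02 in the other 2 harvests. Their part in the results below was not tested. In bulk RNA, fewer cells of a type and less RNA per cell cannot be told apart.

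A ribosome begins in the nucleolus, where RNA polymerase I copies the ribosomal RNA genes into a long precursor. Small nucleolar RNPs of the box C/D class guide methylation of this RNA and those of the box H/ACA class guide its pseudouridylation, while processing factors cut it and fold it into the small and large subunits. The genes of this machinery are known as growth genes: in blood progenitors, as in most cells, their transcripts are raised by MYC, which binds E-box sequences near their start sites, and TGF-β is known to lower MYC in many epithelial cells.

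E-boxes near the start sites of these genes are shown because MYC is the regulator most often tied to them. RefSeq windows of 300 bases on GRCm38.p6, from 250 bases before to 50 after the start of the gene, were available for 30 of the 34 genes. Npm1, Fbl, Rrs1 and Bop1 had none. The palindrome CACGTG, which reads the same on both strands, lay in 6 of the 30 windows (20.0%), those of Imp4, Mybbp1a, Nop2, Pes1, Tsr1 and Utp20, against 8.09% of the 27025 windows of all genes. Up to 30 bases around it follow for 4 of them, 5′ to 3′ on the + strand, with the motif in capitals. Imp4 and Nop2 hold it before the start, and Pes1 and Tsr1 after it.
Imp4 (chr1:34439696-34439725): acggtcttagacCACGTGacatcccaaatc
Nop2 (chr6:125131811-125131840): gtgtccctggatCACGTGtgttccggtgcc
Pes1 (chr11:3963965-3963994): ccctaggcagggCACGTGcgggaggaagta
Tsr1 (chr11:74898092-74898121): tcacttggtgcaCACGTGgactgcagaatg
Before the start alone, the motif was in 2 of the 30 windows (6.67%) against 6.86% of all genes, and the other 4 windows held it only after the start. The variant CACGCG, searched on both strands and differing from CACGTG in 1 base, so that a window can hold both, was in 10 of the 30 windows (33.3%) against 10.5% of all genes. Before the start it was in 6 of 30 (20.0%) against 8.65%. For Nolc1 it lies in the following stretch, printed because this gene had the largest difference between slides.
Nolc1 (chr19:46075810-46075839): gcaggatgatgaCGCGTGtgggaccggaag
The capitals are CGCGTG, which is CACGCG on the other strand. A match of letters is a description and not a binding site.

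None of the 33 genes passed the threshold after 2 h of TGF-β1, in either direction. Their log2 changes ran from -0.40 for Polr1b to 0.11 for Polr1c, with a median of -0.16 beside -0.01 over all genes tested, and 32 of the 33 were negative. Across all genes 51.4% were negative, 0.0274% were called lower in treated cells and 0.226% called higher. The count of negative changes was 29 to 32 of 33 under 5 scalings, with the 29 after normexp background correction, where 76.9% of all genes were negative. The direction relative to all genes was not stable: after normexp the median was -0.09 for the 33 genes and -0.16 for all genes, so the 33 stood above the rest there. At an unadjusted p under 0.05, 0 of the 33 were lower and 0 higher, against 2.15% lower and 3.62% higher among all genes. The untreated and treated values overlapped for each of the 33, whereas the groups did not overlap for 5.05% (treated lower) and 5.37% (treated higher) of all genes. The layout works against a treated-lower separation here. Untreated sample 2 lay on slide 2, where 32 of the 33 genes were lower in both groups, and treated sample 1 on slide 1. The overlap therefore does not show that the groups were alike.

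**Figure D1:**
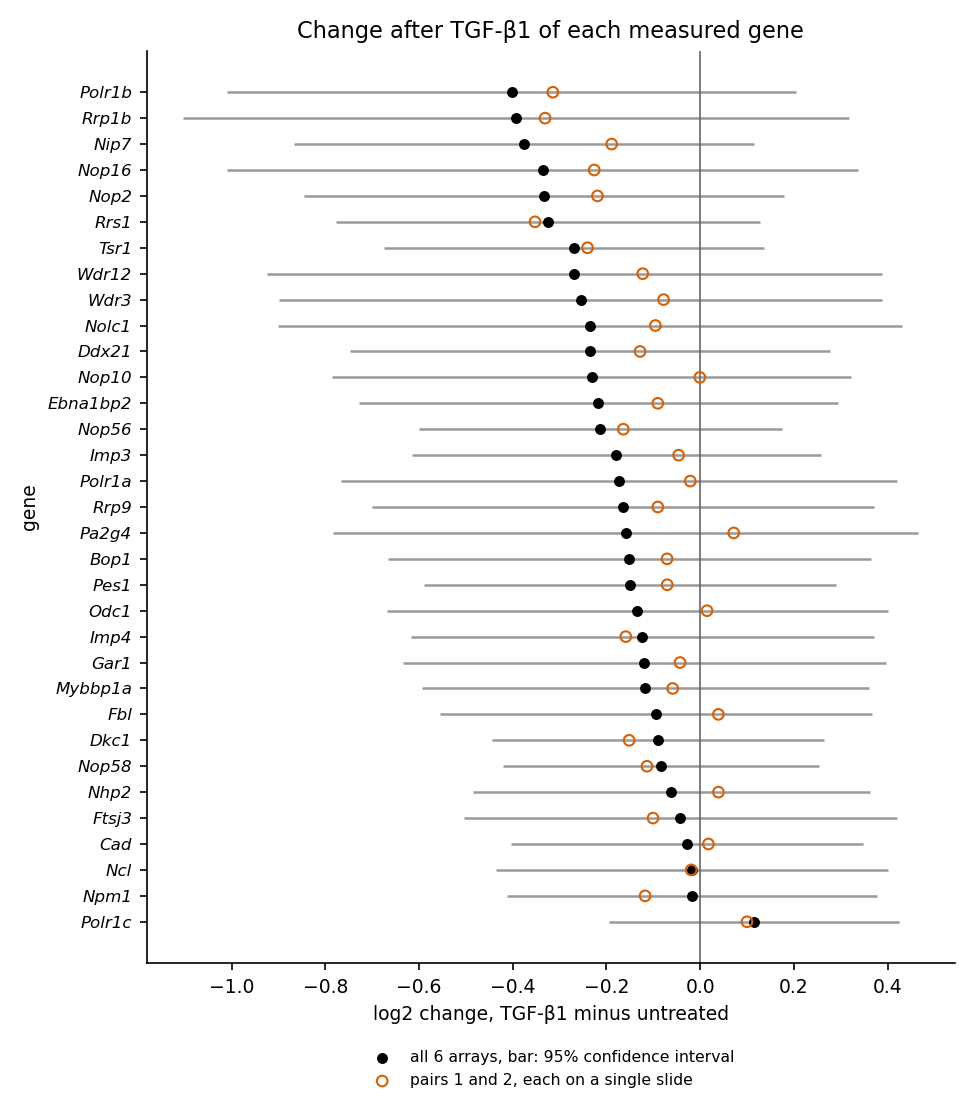
Log2 change, TGF-β1 minus untreated, of the 33 measured genes, ordered by the change; black points and bars are the estimate over all 6 arrays with its 95% confidence interval (n = 3 arrays per group, limma), and open circles the mean of pairs 1 and 2. Each interval crosses 0, and the black points run from -0.40 (Polr1b) to 0.11 (Polr1c).

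The 95% intervals bound the treated minus untreated difference on these arrays. The fits of this paragraph have no slide term, so slide and treatment are mixed in that difference. For 30 of the 33 genes the interval lay within a halving and a doubling (between -1 and 1 on the log2 scale). The same held for 24062 of all 29192 genes and transcripts. The lowest bound was -1.10, for Rrp1b, and the highest was 0.47, for Pa2g4. With the replicate number as a block, each treated sample is compared with the untreated sample of its own harvest. The median SE of the 33 genes then went from 0.21 to 0.12. All 33 intervals lay between -1 and 1 under the block, as did those of 26674 of all 29192 genes and transcripts. The block called 0 of the 33, with a smallest adjusted p of 0.318 (limma, replicate block), and at an unadjusted p under 0.05 it had 5 lower, Polr1b, Rrp1b, Rrs1, Nop16 and Nop2, and 0 higher. Among all genes the block had 5.00% lower and 5.87% higher at that level, and it called 0.120% lower and 0.531% higher.

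RNA polymerase I was measured through 3 subunits, whose changes had a median of -0.17. Polr1b, the second-largest subunit and part of the catalytic core, was at 1.68, 1.03 and 1.55 in untreated samples 1 to 3 and at 1.40, 0.67 and 0.97 in treated samples 1 to 3. Within each harvest the treated value was lower, but untreated sample 2, on slide 2, lay below treated sample 1, on slide 1, and the groups overlapped. The change was -0.40 ± 0.25 (SE), a 1.32-fold lower level (limma adjusted p = 0.99995, and 0.319 with the replicate block). Polr1c, a subunit that RNA polymerase III shares, was at 4.42, 4.18 and 4.32 untreated and 4.43, 4.38 and 4.46 treated. It was the one gene of the 33 that was higher in treated cells in all 3 pairs (14.1% of all genes were), with a change of 0.11 ± 0.13. Polr1a, the largest subunit, had a change of -0.17 ± 0.25, and its pair differences were -0.06, 0.02 and -0.48.

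The box C/D proteins had changes close to their errors, with a median of -0.09. Fbl (fibrillarin), the methyltransferase of these RNPs, was at 7.18, 6.78 and 7.01 untreated and at 7.19, 6.84 and 6.65 treated. The treated sample was the higher one in harvests 1 and 2, by 0.02 and 0.06, and the lower one in harvest 3, by 0.36. Nop56, one of the paired scaffold proteins, was at 5.28, 4.91 and 5.27 untreated and 5.05, 4.81 and 4.96 treated, a change of -0.21 ± 0.16 with overlapping groups. Nop58, its partner, was at 4.98, 4.69 and 4.84 untreated and 4.81, 4.63 and 4.82 treated, a change of -0.08 ± 0.14. Both scaffold genes were lower in the treated sample of every pair and neither difference exceeded the spread between replicates.

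The 4 core proteins of box H/ACA RNPs had a median change of -0.10. Nop10, a small core protein, was at 4.80, 4.51 and 5.04 untreated and 4.96, 4.34 and 4.35 treated. Its pair differences of 0.17, -0.17 and -0.69 went in both directions, and the change was -0.23 ± 0.23. Nhp2, an RNA-binding core protein, was at 4.72, 4.34 and 4.75 untreated and 4.75, 4.39 and 4.49 treated, a change of -0.06 ± 0.18. Dkc1 (dyskerin, the pseudouridine synthase) and Gar1 (a core protein bound to it) had changes of -0.09 ± 0.15 and -0.12 ± 0.21. None of the 4 differed beyond the spread between replicates.

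Among 6 nucleolar chaperones and regulators the median change was -0.14. Ncl (nucleolin), the abundant RNA-binding protein of the nucleolus, was at 7.24, 6.80 and 7.14 untreated and 7.16, 6.84 and 7.13 treated, a change of -0.02 ± 0.17. Npm1 (nucleophosmin), a histone and ribosome chaperone, was at 7.04, 7.39 and 6.95 untreated and 6.99, 7.20 and 7.13 treated, a change of -0.02 ± 0.16. Both group means were nearly equal for these genes, while the Npm1 probe used was highest in the samples of slide 2 and Ncl lowest in harvest 2. Nolc1, a chaperone of small nucleolar RNPs, was at 2.58, 1.96 and 2.51 untreated and 2.61, 1.74 and 2.00 treated, a change of -0.24 ± 0.28. The helicase Ddx21 had a change of -0.23 ± 0.21, Pa2g4 (a nucleolar growth regulator) of -0.16 ± 0.26 and Mybbp1a (a repressor of rRNA synthesis) of -0.12 ± 0.20.

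Small subunit processing was read through 5 genes, with a median change of -0.18. Tsr1, a late assembly factor of the small subunit, was at 2.58, 2.21 and 2.23 untreated and 2.26, 2.05 and 1.91 treated. Its treated value was lower in every pair, by 0.32, 0.16 and 0.33, and the change was -0.27 ± 0.17 with overlapping groups. Imp4, a protein of the RNP that cleaves the precursor RNA, was at -1.39, -1.94 and -1.83 untreated and -1.58, -2.06 and -1.88 treated, a change of -0.12 ± 0.21. Wdr3 (a processome protein), Imp3 (the partner of Imp4) and Rrp9 (a protein of the same RNP) had changes of -0.26 ± 0.27, -0.18 ± 0.18 and -0.16 ± 0.22. The promoter stretches of Tsr1 and Imp4 are printed above, and neither gene was called.

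The 10 large subunit genes had the most negative median among the 7 roles, -0.30, and 8 of the 10 were lower in treated cells in all 3 pairs (20.0% of all genes). The median was -0.49 in pair 3, which spans the slides, -0.16 over pairs 1 and 2, and -0.09 with slide in the fit. Rrp1b, a processing factor of the large subunit, was at 0.90, 0.18 and 0.85 untreated and 0.66, -0.24 and 0.33 treated, a change of -0.39 ± 0.30. Untreated sample 2 lay below treated samples 1 and 3, so the groups overlapped. Nip7, another such factor, had a change of -0.38 ± 0.20, Nop16 of -0.34 ± 0.28, the methyltransferase Nop2 of -0.33 ± 0.21 and Rrs1, which recruits a small ribosomal RNA to the precursor, of -0.33 ± 0.19. The members of the complex of Pes1, Bop1 and Wdr12 had changes of -0.15 ± 0.18, -0.15 ± 0.22 and -0.27 ± 0.27, and Ebna1bp2 of -0.22 ± 0.21. Ftsj3, a methyltransferase of the precursor RNA, was at 2.32, 1.79 and 1.97 untreated and 2.16, 1.75 and 2.05 treated, and its change of -0.04 ± 0.19 was the nearest to 0 in the group.

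The growth enzymes had little difference between groups, and none beyond the spread. Odc1 (ornithine decarboxylase), the rate-limiting enzyme of polyamine synthesis, was at 5.43, 4.90 and 5.36 untreated and 5.45, 4.91 and 4.92 treated. Its treated samples were 0.02 and 0.01 higher in harvests 1 and 2 and 0.43 lower in harvest 3, and the change was -0.13 ± 0.22. Cad, the multifunctional enzyme that begins pyrimidine synthesis, was at 3.54, 3.24 and 3.54 untreated and 3.56, 3.26 and 3.42 treated, a change of -0.03 ± 0.16. For Cad and Pes1 the several probes of the gene gave changes of both signs, whereas the other 12 of the 14 genes with several probes had 1 sign on all of them.

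The harvest that spanned slides carried most of the negative difference. The median difference of the 33 genes was -0.08 in pair 1 and -0.11 in pair 2, near the all-gene medians of -0.07 and -0.07, but -0.33 in pair 3, where the all-gene median was 0.11. The treated sample was lower for 23, 26 and 29 of the 33 genes in pairs 1, 2 and 3, against 62.0%, 63.7% and 40.2% of all genes. Pair 3 had the lowest difference for 25 of the 33, and for 8767 of all 29192 genes and transcripts. Lower values in all 3 pairs were seen in 18 of the 33 genes and in 20.0% of all genes. Over pairs 1 and 2 alone the median was -0.09 against -0.07 for all genes, 27 of the 33 were negative (63.8% of all genes), and 0 were called, with a smallest adjusted p of 0.200 (limma, replicate block, 0.0103% of all genes called lower).

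**Figure D2:**
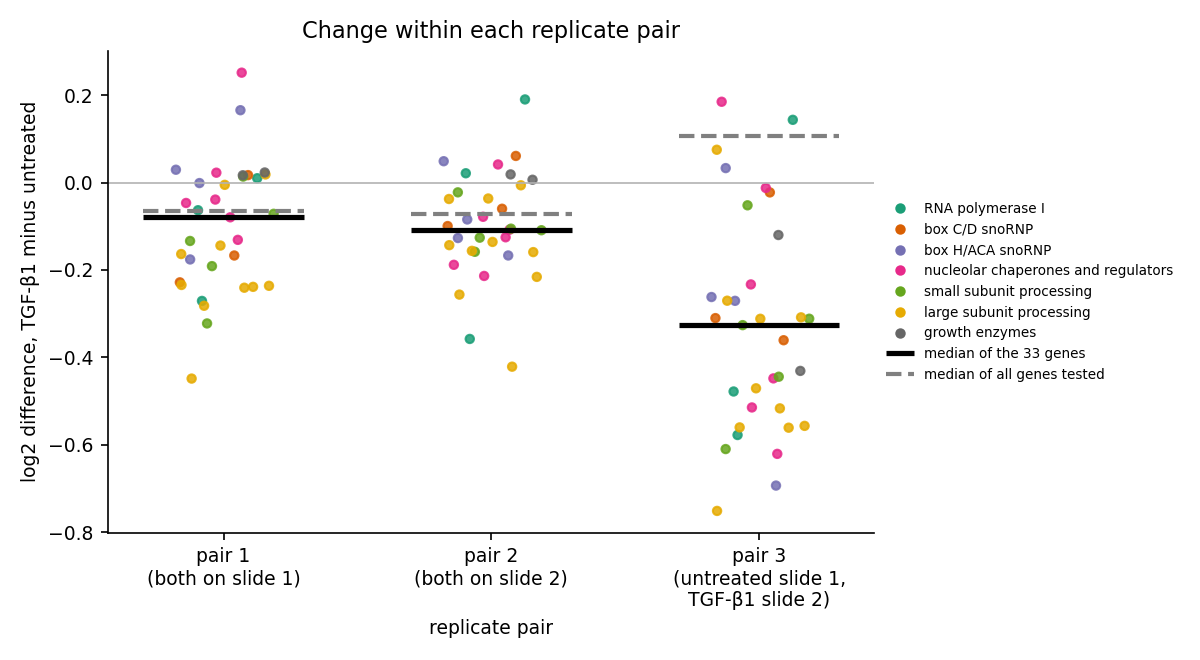
Log2 difference, TGF-β1 minus untreated, within each replicate pair for the 33 genes, coloured by role; black bars are their median and dashed grey bars the median of all genes tested. The medians of the 33 genes are -0.08, -0.11 and -0.33, and the lowest is in pair 3, which spans the slides.

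With slide as a term in the fit, the median change of the 33 genes was -0.03 against -0.06 for all genes, and 21 of the 33 were negative (62.2% of all genes). Within slide 1 the median of the 33 was -0.0041 against -0.07 for all genes, and within slide 2 it was -0.03 against -0.04. The sign of the members' median with slide in the fit turned with the scaling, from -0.06 with quantile normalization to 0.04 with median centring. Weighting arrays by their fit moved the unblocked median to -0.42, and leaving out single arrays moved it between -0.06 (without treated sample 2) and -0.32 (without treated sample 1). Under each of these settings 0 of the 33 genes were called, where the setting allows a test, which at these errors does not show that their levels were equal.

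The slides separated these genes more than the treatment did. The comparison of slides was chosen after the slide layout and the values had been seen, and slide stands here for whatever the arrays of a slide share, which in harvest 3 includes the treatment. In a fit with treatment and slide as terms, slide 2 was lower than slide 1 by a median of -0.45 on the log2 scale (slide 2 minus slide 1), while the all-gene median was 0.10. Of the 33 genes, 14 were called lower on slide 2 and 0 higher (limma, adjusted p from 0.030), against 1.77% lower and 11.9% higher among all genes. The number called rested on single arrays: it was 0 without untreated sample 1, 2 or 3 or treated sample 1 or 2, and 13 without treated sample 3. It also rested on the scaling, with 0 called after normexp, 0 after quantile normalization, 24 after median centring and 1 in the authors' processed values. The count over all genes moved with it: 516 of 29192 were called lower under the main scaling, and 0, 8, 3574 and 257 in the same order. Under all 5 scalings 30 to 32 of the 33 genes were lower on slide 2. Other values moved with the slides as well: the slide 2 arrays were the brighter ones, the median deviation of 13 stem and progenitor markers was 0.07 to 0.24 on slide 1 and -0.21 to -0.10 on slide 2, and that of 10 lymphoid markers was -0.13 to -0.12 on slide 1 and 0.15 to 0.29 on slide 2. Single markers were less uniform. The slides overlapped for each of the 13. Of the 10 lymphoid markers 4 lay wholly higher on slide 2 and 1, Cd79b, wholly lower. Across all genes 26.9% lay wholly higher and 13.7% wholly lower. Of 9 mast cell, 8 erythroid and megakaryocyte and 6 endothelial and epithelial markers, 4, 4 and 3 lay wholly higher and 0 wholly lower. Of 11 granulocyte and macrophage and 10 fibroblast and stroma markers, 0 and 1 lay wholly higher and 1 and 1 wholly lower. The part of these values in the slide difference was not tested.

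The separation was seen in both groups and in most genes. Slide 2 values lay wholly below slide 1 values for 27 of the 33 genes (13.7% of all genes) and wholly above for 1, Npm1 (26.9% of all genes). The second Npm1 probe did not show this: it was at 6.22, 6.21 and 6.10 on slide 1 and 6.06, 6.05 and 6.15 on slide 2, with overlapping values. They overlapped for Polr1c, Nop58, Dkc1, Ftsj3 and Rrs1. For 32 of the 33 genes slide 2 was lower both within the untreated and within the treated group, as for 27.7% of all genes. Odc1 shows it in its values: the slide 1 samples were at 5.43, 5.36 and 5.45 and the slide 2 samples at 4.90, 4.91 and 4.92, a difference of -0.52 ± 0.09 (SE, limma adjusted p = 0.032). For Nolc1 the slide 1 mean was 2.57 ± 0.05 and the slide 2 mean 1.90 ± 0.14 (SD, n = 3), the largest slide difference of the 33 at -0.66 ± 0.12 (SE, limma adjusted p = 0.033).

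**Figure D3:**
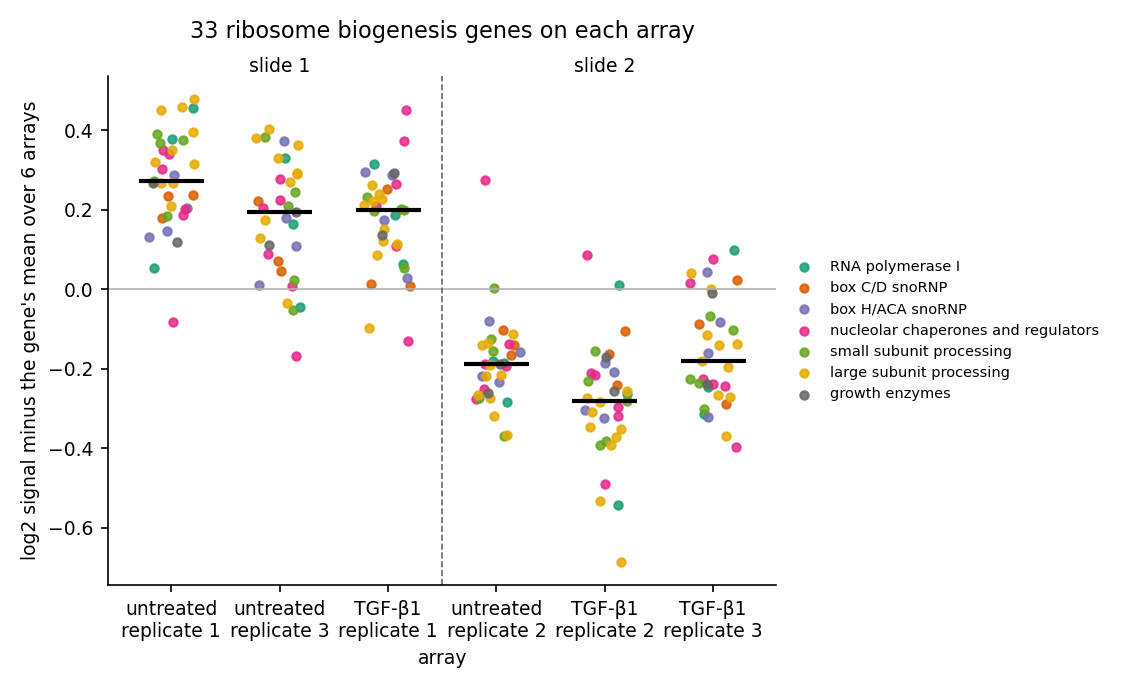
Deviation of each of the 33 genes from its own mean over the 6 arrays (log2), by array, coloured by role, with the slide of each array marked and the median as a black bar. The median is 0.27, 0.19 and 0.20 on the slide 1 arrays (untreated 1, untreated 3, treated 1) and -0.19, -0.28 and -0.18 on the slide 2 arrays (untreated 2, treated 2, treated 3).

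Samples of the same group were also compared, which holds the treatment fixed but sets different harvests against each other. The parts of slide and harvest in these differences were not tested. On the same slide, untreated sample 3 differed from untreated sample 1 by a median of -0.09 over the 33 genes, and treated sample 3 from treated sample 2 by 0.14. Across slides, the medians were -0.48 and -0.40 for untreated sample 2 against untreated samples 1 and 3, and -0.48 and -0.40 for treated samples 2 and 3 against treated sample 1. The all-gene medians of these 6 comparisons lay between 0.01 and 0.14. The slide accounted for a median of 86.6% of a gene's sum of squares over the 6 arrays, harvest for 74.0% and treatment for 14.4%, where the medians over all genes were 41.4%, 59.9% and 8.40%. The shares of slide and harvest overlap, since harvests 1 and 2 each lay on 1 slide. Those of slide and treatment overlap too, since untreated samples 1 and 3 lay on slide 1 and treated samples 2 and 3 on slide 2. The slide share was taken without removing treatment. With harvest and slide both in the fit, only harvest 3 informs the slide term, and there treatment and slide were told apart solely through harvests 1 and 2. The median slide difference was -0.24, against 0.14 for all genes, and 25 of the 33 genes were lower on slide 2. In this fit 0 of the 33 were called, but it leaves little to estimate the error from, so the 0 does not show equal levels.

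**Figure D4:**
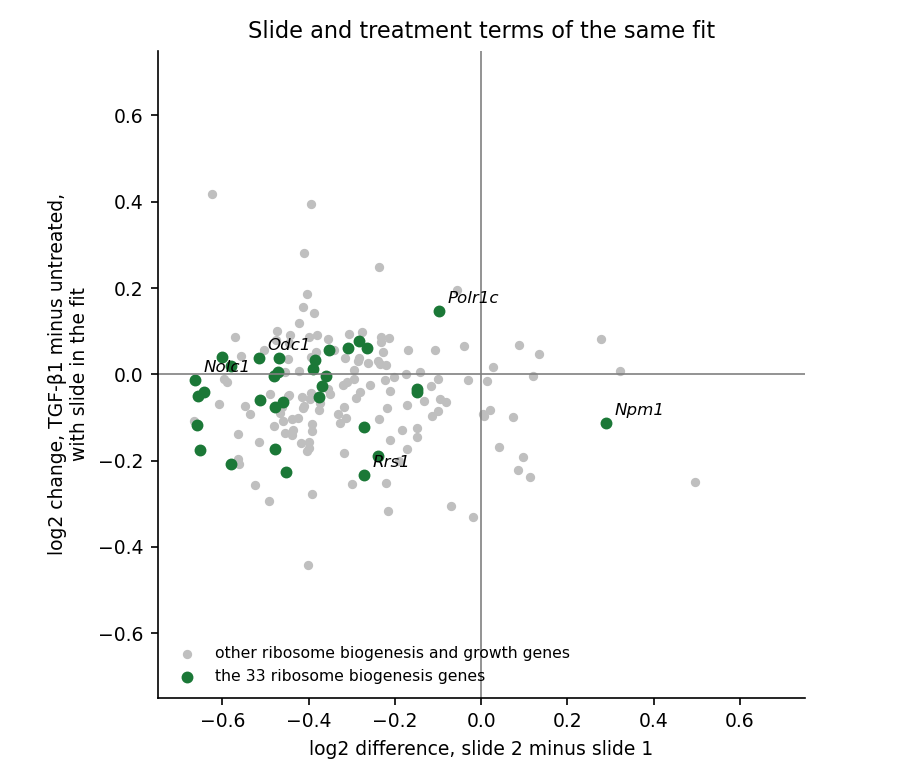
Slide difference (slide 2 minus slide 1, x axis) against treatment change with slide in the fit (TGF-β1 minus untreated, y axis), both log2 and from 1 fit of all 6 arrays, for the 33 genes and for the other pathway genes; Mycn, at -4.01 on the y axis, lies outside the axes and is not drawn. Of the 33 genes 32 lie to the left of 0, and Npm1, at 0.29, is on the right.

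Other genes of ribosome production and growth were read from 8 lists of 152 genes, of which 139 were measured. The main fit called 0 of the 139, with a smallest adjusted p of 0.145, and had 4 lower and 0 higher at an unadjusted p under 0.05 (2.15% and 3.62% of all genes), while the replicate block called 1, Mycn, lower (0.120% of all genes). Their median change was -0.13 and 120 of the 139 were negative (51.4% of all genes). Over pairs 1 and 2 the median was -0.09, and the median slide difference was -0.32, with 21 called lower on slide 2 and 1 higher under the main scaling (1.77% and 11.9% of all genes). By list, the median changes were -0.09 for 13 other RNA polymerase I genes, -0.13 for 7 snoRNP assembly genes, -0.15 for 41 small subunit genes, -0.15 for 40 large subunit genes, -0.12 for 11 exosome genes, -0.13 for 8 polyamine genes and -0.09 for 8 nucleotide synthesis genes. The 8 polyamine genes had a median slide difference of 0.03, where that of Odc1 was -0.52. They were split, from -0.60 to 0.28, and 3 of the 8 lay wholly lower on slide 2 and 0 wholly higher (13.7% and 26.9% of all genes).

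None of the lowest and highest genes of these lists, outside the MYC network, was called. Nmd3, the export adapter of the large subunit, had a change of -0.46 ± 0.24, Mphosph10 (the processome partner of Imp3 and Imp4) of -0.43 ± 0.24 and Ctps (CTP synthase) of -0.40 ± 0.25. At the other end were Exosc4, an exosome subunit, at 0.26 ± 0.21 and Umps, an enzyme of pyrimidine synthesis, at 0.21 ± 0.26. The other extremes of the lists were Polr1e (-0.33) and Znrd1 (0.14) of RNA polymerase I, Nufip1 (-0.33) and Pih1d1 (0.01) of snoRNP assembly, Wdr46 (0.05) of the small subunit, Nvl (0.17) of the large subunit, Mphosph6 (-0.31) of the exosome and Smox (0.18) of polyamine breakdown. The groups did not overlap for 5 of the 139 genes with treated lower and 1 with treated higher, against 5.05% and 5.37% of all genes. The 5 were Myc and Mycn, described below, Rpf2, which brings a ribosomal RNA into the large subunit, with a change of -0.33 ± 0.13, Amd1, an enzyme of polyamine synthesis, with -0.34 ± 0.14, and Wdr36, a processome protein, with -0.23 ± 0.15. The gene with treated higher was Mxd4, an antagonist of MYC, with a change of 0.18 ± 0.13. Rpf2, Amd1, Wdr36 and Mxd4 were named after their values were seen, and none was called.

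In the MYC network 11 genes were measured, with a median change of -0.10. Myc, the main activator of ribosome biogenesis genes, was at 4.01, 3.49 and 4.09 untreated and 3.46, 2.96 and 3.45 treated. The treated sample was lower in every harvest and the groups did not overlap, but the change of -0.57 ± 0.22 did not pass the test (limma adjusted p = 0.794, and 0.134 with the replicate block). Mycn, its paralogue, was at -0.76, -1.34 and -3.39 untreated. In the treated samples it was dim, at -5.69, -4.99 and -6.52, which leaves the size of its fall uncertain. Its change of -3.90 ± 0.72 missed the threshold without the block (limma adjusted p = 0.145) and passed it with the replicate block (limma adjusted p = 0.040). Under that block the call was lost when pair 2 or pair 3 was left out, with an adjusted p of 0.061 over pairs 1 and 2 (limma). The 4 genes with printed CACGTG stretches had changes of -0.12 (Imp4), -0.33 (Nop2), -0.15 (Pes1) and -0.27 (Tsr1), and over pairs 1 and 2 of -0.16, -0.22, -0.07 and -0.24, inside the range of the other genes.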

How the data were processed

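Total RNA of 6 samples was read on 1-colour Agilent arrays (design 014868). Per the file headers, the deposited intensity values are processed signals of Feature Extraction 10.1.1.1, with background already handled by that software. The authors' deposited series matrix holds log2 values whose processing is not given in the sources used here beyond limma, per the submitters' processing notes; its centring is unknown, and it served as an alternative.

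The 34 genes, their roles and all lists were chosen with earlier results of these data known. Spots were scaled to each array's 75th percentile and log2 transformed; control spots and outlier flags were left out, and 50 values whose spots were all outlier-flagged took the mean of those spots. Spots of a probe were averaged, and probes well above background on at least 3 of 6 arrays were kept (36384 of 41174). RefSeq GRCm38.p6 named 23374 probes by accession; 17800 kept the array's identifier. The brightest passing probe stood for a gene. limma 3.58.1 in R 4.3.3 (lmFit, eBayes) was fitted without a block, with Benjamini-Hochberg adjustment at 0.05.

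Same-numbered samples deviated together (correlation 0.607, 0.777 and 0.545, against -0.725 to 0.0712 for different numbers), and the labels' harvests pair them. The fit was tested on simulated data with known changes. Values on every array are given for genes called in either fit, the lowest and highest of each role, and Ncl, Npm1, Fbl, Odc1 and Polr1b. Of other pathway genes, Myc, Mycn, called genes and extremes of each list could be named. Alternatives were normexp, quantile and median scaling, the authors' matrix, 2 filters, averaged probes, replicate and slide blocks, array weights and left-out arrays. The scanner files used here have no mean signal column, so normexp (offset 50) used the median signal in its place.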

Additional observations from a re-analysis of the deposited data

How the results depend on the processing

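No gene of the 33 was called for treatment under any alternative that gives a test. The members' median change kept its sign, but minus the all-gene median it turned from -0.16 to 0.08 with normexp, and with slide in the fit the members' median of -0.03 turned to 0.02 with normexp and 0.04 with median centring. With the replicate block 190 of all genes were called in place of 74, 1 of the other pathway genes (Mycn) in place of 0, and 0 of the 33 (smallest adjusted p 0.318); leaving out 1 pair under the block gave 42, 26 and 55 over all genes without pairs 1, 2 and 3 and 1, 0 and 0 pathway genes. The all-gene count was 5 with normexp, 44 with median centring, 171 with the authors' matrix, 660 with array weights, which also called 1 pathway gene, and 7 to 23 with 1 array left out. The members' median of -0.16 was -0.0041 within slide 1, -0.42 with array weights and -0.32 to -0.064 with 1 array left out. Array weights and left-out arrays had no slide term and changed the balance of slides between the groups. The slide comparison was chosen after seeing the data. Its median of -0.45 was -0.34 with normexp, -0.30 with quantile normalization, -0.71 with median centring and -0.23 with the authors' matrix. The all-gene slide median was 0.10 under the main scaling and -0.11, -0.02, -0.16 and -0.02 in the same order. The median of the 33 was -0.24 with the replicate and slide blocks, and -0.46 to -0.41 with 1 array left out. Its 14 calls were 0, 0, 24, 1, 0 and 0 to 13 in the order of these settings. Over all genes, 516 were called lower on slide 2 under the main scaling. With normexp, quantile normalization, median centring and the authors' matrix the all-gene counts were 0, 8, 3574 and 257. The cause of these differences was not tested.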
